A study of Mus musculus with 30 samples.

Results

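The effect of parity on luminal cells that had lost Rank was measured in 7 of the 30 libraries of the series, namely those of GFP+ luminal cells from 4 parous and 3 virgin K8iΔRank mice. They were chosen by their labels for lineage, stage and genotype. All K8iΔRank mice were K8rta:TETO CRE:RANK fl/fl:mTmG, in which a Krt8-driven rtTA switches on Cre under doxycycline, Cre removes the floxed Rank gene, and the mTmG reporter turns from tomato to GFP in the same cells. The K8imTmG controls, K8rta:TETO CRE:mTmG, carried the same drivers and reporter with an intact Rank gene, and 5 parous and 3 virgin luminal libraries of them are used here beside the K8iΔRank ones. By the labels all mice received doxycycline at 1 mg/ml in the drinking water between weeks 3 and 8 of age, controls included. Parous glands were taken after a pregnancy and a completed involution, and virgin glands from age-matched females. K8iΔRank mothers lost their first litters just after birth, whereas controls nursed for longer before weaning, so in the parous groups genotype also goes with a different length of lactation. Each library is 1 mouse, sorted as CD24 high and CD49f low, and the RNA was read from its 3′ ends (QuantSeq). Such reads do not show whether an internal exon is missing, so the genotype is that of the labels.

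Rank (Tnfrsf11a) is the receptor of Rankl (Tnfsf11), a cytokine that hormone-sensing luminal cells release when progesterone acts on them. Rank on neighbouring luminal progenitors signals through NF-κB, and this signal drives the growth of milk-producing alveoli in pregnancy. After weaning the alveoli are removed, but luminal cells of a parous gland keep traces of the pregnancy, among them a raised level of milk protein transcripts and fewer cells that express hormone receptors.

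The 7 libraries fall into 2 sets that coincide with stage. Clec2d is a C-type lectin gene whose level divides the libraries of this series, with both lineages and both genotypes on each side. The division is not independent of these labels, as only parous luminal K8imTmG and parous basal K8iΔRank cells hold libraries of both sides. Clec2d was 2.28, 1.97, 2.23 and 1.99 normalized counts in the parous libraries of mice 787, 794, 798 and 830. In the virgin libraries of mice 821, 822 and 825 it was 65.6, 146 and 85.9. With the dividing value of 30 all 4 parous libraries are therefore Clec2d-low and all 3 virgin libraries Clec2d-high. The parous libraries held 2214318 to 3130419 deduplicated reads, of which the 100 most abundant genes took 17.5% to 20.02%. The virgin libraries held 814455 to 1158036 reads, and their 100 most abundant genes took 25.8% to 30.1%. A single read was worth 0.381 to 0.557 normalized counts in the parous and 1.26 to 1.92 in the virgin libraries. RNA integrity is given only as a range over the series and not per library. Stage and the Clec2d split cannot be told apart within these 7 libraries, and for that reason the same genes are followed below in 2 comparisons between libraries of 1 stage and genotype that differ in the split. The first sets the 3 Clec2d-low against the 2 Clec2d-high libraries of parous luminal K8imTmG cells, and the second sets the 2 Clec2d-low against the 2 Clec2d-high libraries of parous basal K8iΔRank cells. A further comparison sets the 3 Clec2d-low parous against the 3 virgin K8imTmG luminal libraries, all of them Clec2d-low.

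The sorted cells carried luminal keratins in both stages. Krt8 was 1288, 1902, 1623 and 1823 in the parous and 1933, 1704 and 1723 in the virgin libraries, and Krt18 was 1535, 2098, 1939 and 1905 and 1257, 1321 and 2152. Neither passed the threshold, with log2 differences between parous and virgin of -0.12 (SE 0.20, limma adjusted p = 0.708, turning to 0.41 with quantile normalization) and 0.28 (SE 0.23, limma adjusted p = 0.421). Of 10 luminal identity genes 1 was called lower and none higher, beside 7.78% and 8.25% of all genes tested. It was Cldn7, a tight junction claudin, which was 242, 224, 153 and 278 in parous and 543, 946 and 589 in virgin cells, and it fell by 1.76 on the log2 scale (limma adjusted p = 0.00406) between Clec2d-low and Clec2d-high libraries of parous K8imTmG cells as well. Basal transcripts were low in all 7 libraries. The 13 basal markers summed to 71.2 to 115 normalized counts in parous and to 108 to 355 in virgin libraries, and Acta2, smooth muscle actin, was lower in parous cells by a log2 difference of -1.93 (SE 0.44, limma adjusted p = 0.0173).

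Of 10249 genes tested, 16.0% were called at a limma adjusted p below 0.05, with 8.25% higher and 7.78% lower in parous K8iΔRank cells. The groups did not overlap in 29.7% of the genes tested, in either direction. The median log2 difference was 0.03. It cannot show whether a shift common to all genes existed, because the values had been divided by size factors that remove such a shift. The same test called 12.8% of 10014 genes between the Clec2d-low parous and virgin K8imTmG libraries. Between libraries of the same stage and genotype on opposite sides of the split it called 17.5% of 10016 genes in parous luminal K8imTmG and 10.4% of 10568 genes in parous basal K8iΔRank cells. The count in luminal K8imTmG cells, 1750 genes, rested on single libraries, as it was 242 without mouse 532 and 437 without mouse 534.

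Log2 differences with parity in K8iΔRank cells mostly had the sign of those between the sides of the split. None of these comparisons shares a library with that of parous and virgin K8iΔRank cells, although the basal K8iΔRank libraries come from the same 4 parous mice. Across 9841 genes, which are not independent replicates, the log2 differences of K8iΔRank parity and of the split in parous K8imTmG cells had a Pearson correlation of 0.685. Of the 1615 called genes tested in both, 1556 (96.3%) had the same sign, against 75.9% of all genes tested in both. Both comparisons called 827 genes, which are 51.2% of the genes called for parity and 47.7% of those called for the split, and 825 of them had the same sign. For the split in basal K8iΔRank cells the correlation was 0.7245 across 9707 genes, and 1530 of 1583 called genes (96.7%) had the same sign. By contrast, the parity differences of K8iΔRank and Clec2d-low K8imTmG cells had a correlation of 0.201 across 9871 genes, and 882 of 1586 called genes (55.6%) had the same sign, against 52.3% of all genes.

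**Figure D1:**
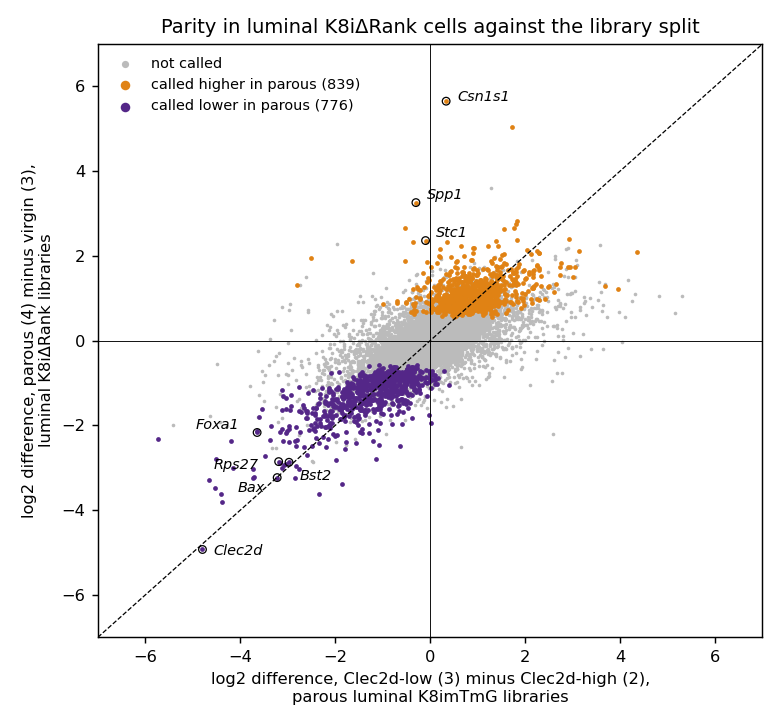
Log2 difference of parous minus virgin luminal K8iΔRank cells (vertical) against the log2 difference of Clec2d-low minus Clec2d-high libraries of parous luminal K8imTmG cells (horizontal), 1 point for each of 9841 genes, coloured where the parity difference was called; the dashed line marks equal values. Bst2 and Rps27 lie near the line, as do Clec2d, which defines the sides, and Bax of the split list, whose places follow from how they were chosen, whereas Csn1s1, Spp1 and Stc1 were higher in parous cells and lie near 0 on the horizontal axis.

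When all 15 luminal libraries were fitted together with the side of the split as a term, none of 10262 genes (0%) was called for parity in K8iΔRank cells by limma, with 823 genes at an unadjusted p below 0.05. DESeq2 called 8 genes and edgeR 0 in that model. The term is estimated from the parous K8imTmG libraries alone, so this fit amounts to subtracting their difference from the K8iΔRank parity difference, with the errors of both. A value after subtraction is given below as the parity difference with the side as a term.

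Of the milk genes tested, 8 of 16 were higher in parous than in virgin K8iΔRank cells. Of 24 listed genes 17 were in the table and 16 passed the filter on low values. Of these 8 rose, none fell and 8 were not called, with a median log2 difference of 1.34 beside 0.03 over all genes tested, of which 8.25% were called higher. The list median was 0.35 for the split in parous luminal K8imTmG and 0.75 for that in parous basal K8iΔRank cells. The 3 genes Csn1s2a, Csn2 and Cel were above 10 only in parous libraries, so that the filter selected them for being high there. Among the other 13 genes 6 rose and the median was 1.26. The summed normalized count of the 17 genes was 11247, 9544, 7784 and 12459 in parous and 5478, 5122 and 4972 in virgin libraries, without overlap. In a bulk library more cells of an alveolar kind and more milk transcript per cell cannot be told apart.

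Caseins are the main proteins of mouse milk and their genes lie together on chromosome 5. Prolactin acts on them through Stat5, whose binding sites follow the palindrome TTCNNNGAA. That motif, which reads the same on both strands, was searched in the 300 bases around the start of each gene (RefSeq promoters of build GRCm38.p6). Of the 16 milk genes tested 10 had a promoter in the table, and the motif stood in 3 (30%), against 539 of 8052 promoters of tested genes (6.69%) and 2288 of all 27025 promoters (8.47%). The windows are shown because all 3 belong to the casein genes described next, with the motif in capitals and 5′ to 3′ on the strand of the gene. A match is a description of the letters only.
Csn1s1, chr5:87666098-87666126 (plus strand, motif at -100 from the start): tttgtaacaaTTCTTAGAAtttatgtaaa
Csn1s2a, chr5:87774460-87774488 (plus strand, motif at 20 after the start): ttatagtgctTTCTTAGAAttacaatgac
Csn2, chr5:87699500-87699528 (minus strand, motif at -93 from the start): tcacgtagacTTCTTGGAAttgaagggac
The promoters of Lalba, Muc1, Mfge8, Plin2, Ltf, Cel and Spp1 held no match in this window.

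The alpha casein gene Csn1s1 (ENSMUSG00000070702.10, chromosome 5, 87814067 to 87830437, plus strand of GRCm39) was 1146, 566, 249 and 1327 normalized counts in the 4 parous libraries. In the 3 virgin libraries it was 16.4, 38.5 and 2.64. The lowest parous library lay well above the highest virgin one. The means were 822 ± 501 (SD, n = 4) and 19.2 ± 18.1 (SD, n = 3), and Csn1s1 rose by a log2 difference of 5.65 (SE 0.73, limma adjusted p = 0.00211). It differed by 0.34 between the sides of the split in parous K8imTmG cells (limma adjusted p = 0.346) and by 1.81 in parous basal K8iΔRank cells (limma adjusted p = 0.0742). Its parity difference with the side as a term, which rests on the luminal libraries, was 5.31 (unadjusted p = 6.63e-05, limma adjusted p = 0.133). Clec2d-low K8imTmG cells had a parity difference of 8.32 (limma adjusted p = 4.24e-06), and the difference between the genotypes, -2.53, was not called (limma adjusted p = 0.064).

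Csn1s2a and Csn2 varied more widely among the parous mice. Csn1s2a was 789, 12.3, 6.13 and 75.5 in the parous and 5.05, 1.92 and 2.64 in the virgin libraries. Mouse 787 stood far above mouse 830, and mice 794 and 798 were only slightly above the virgin libraries. Csn2, beta casein, was likewise highest in mouse 787 and next in mouse 830, with 694, 8.84, 9.48 and 46.7, and had 1 read or none in each virgin library. No fold is given for Csn2 because each virgin value lies below 3 reads. Of the virgin values of Csn1s2a 2 of 3 also lie below 3 reads, so that its size is uncertain, and its log2 difference of 3.61 (SE 1.25) did not pass the threshold (limma adjusted p = 0.0687). Its parity difference in K8imTmG cells was 9.44 within the Clec2d-low libraries, and over the 15 libraries the difference between the genotypes was -5.31 (limma adjusted p = 0.0359). Csn3, kappa casein, was already at 2509.8, 1398 and 1559 in virgin K8iΔRank cells and at 1385, 1004, 1368 and 1996 in parous ones. Its parity difference was -0.34 (SE 0.27, limma adjusted p = 0.416, or 0.15 with quantile normalization) in K8iΔRank and 2.18 (limma adjusted p = 0.0147) in Clec2d-low K8imTmG cells. Over the 15 libraries, without regard to the split, the difference between the genotypes was -2.70 for Csn3 (limma adjusted p = 0.00765). With the side as a term it was -2.05 and not called (limma adjusted p = 0.123). Between the sides Csn3 differed by -0.46 in parous luminal K8imTmG and by -1.19 in parous basal K8iΔRank cells (limma adjusted p = 0.0766 and 0.041). Lalba, the milk protein alpha-lactalbumin, was 54.03, 115, 38.5 and 103 in parous and 23.97, 46.1 and 75.3 in virgin cells, and the groups overlapped.

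Other secreted and milk fat globule genes rose more evenly. Spp1, osteopontin (ENSMUSG00000029304.16, chromosome 5, 104582165 to 104589235, plus strand), was 307, 180.3, 105 and 250.3 in parous and 13.9, 26.9 and 19.8 in virgin libraries. Every parous value was above every virgin value, with means of 211 ± 87.4 (SD, n = 4) and 20.2 ± 6.53 (SD, n = 3), and the log2 difference was 3.26 (SE 0.35, limma adjusted p = 0.00118). It was -0.30 between the sides of the split in luminal and 0.82 in basal cells, and 3.56 with the side as a term (unadjusted p = 0.00344). Trf, transferrin, was 1554, 1662, 1136 and 2033 in parous and 464, 473 and 568 in virgin libraries, a log2 difference of 1.64 (SE 0.22, limma adjusted p = 0.00236) beside 2.0 in Clec2d-low K8imTmG cells and 0.43 between the sides. Muc1, a mucin of the milk fat globule membrane, was 177, 176, 138 and 191 and 45.4, 34.6 and 59.4, a log2 difference of 1.88 (SE 0.23, limma adjusted p = 0.00178).

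Mfge8, lactadherin, an opsonin through which dying cells are cleared, was 3114, 3712, 2922 and 3983 in parous and 1287, 1652 and 1353 in virgin libraries. The groups lay far apart, with a log2 difference of 1.26 (SE 0.20, limma adjusted p = 0.00392), and the sides of the split differed by 0.077 in luminal and 0.76 in basal cells (limma adjusted p = 0.839 and 0.137). In Clec2d-low K8imTmG cells Mfge8 differed by 0.37 with parity (limma adjusted p = 0.229). The difference between the genotypes was 0.92 (limma adjusted p = 0.0705). Plin2, the coat protein of milk lipid droplets, rose by 1.40 (limma adjusted p = 0.0147), and Cel, a lipase secreted with milk, rose by 2.22 (limma adjusted p = 0.0374) although its groups overlapped. Btn1a1, butyrophilin, missed the threshold at a log2 difference of 0.77 (limma adjusted p = 0.0525).

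**Figure D2:**
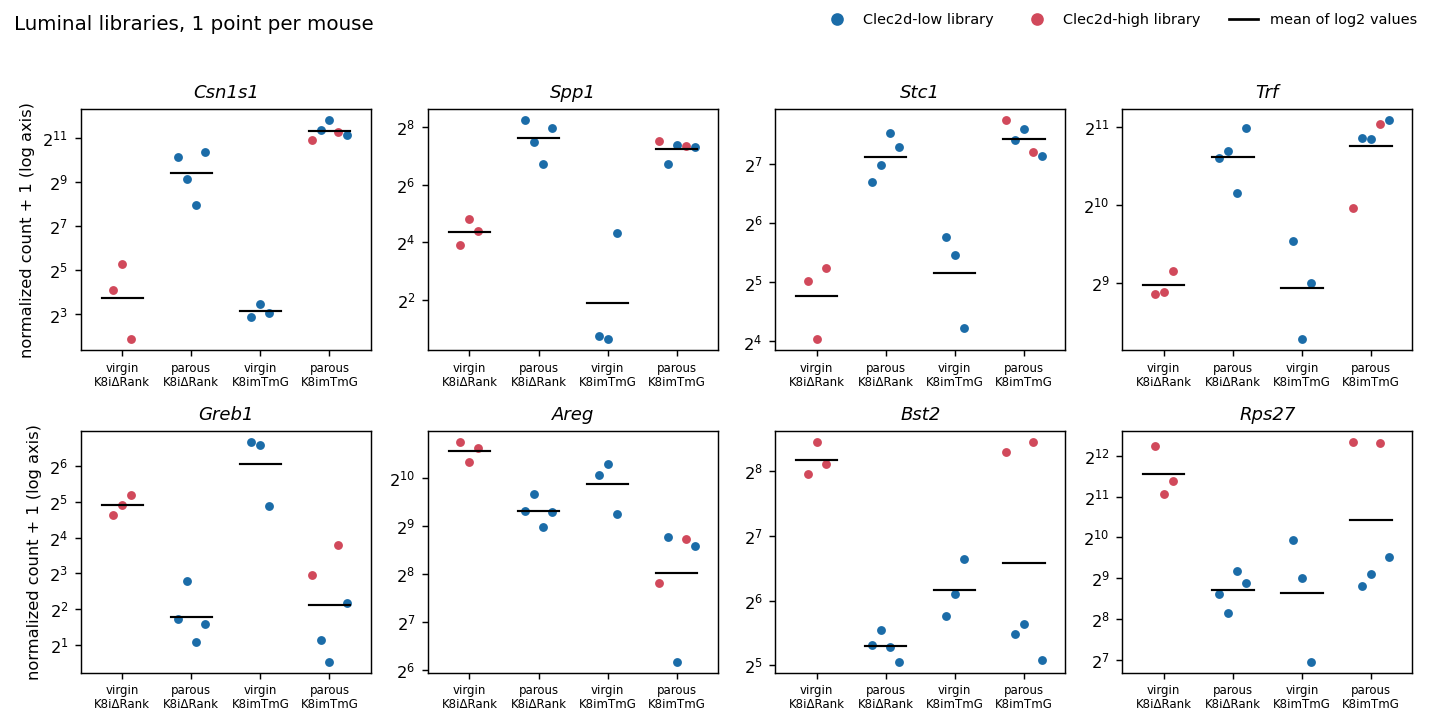
Normalized count + 1 on a log axis of 8 genes in the 15 luminal libraries, 1 point per mouse, coloured by the side of the Clec2d split, with the mean of the log2 values as a line. Csn1s1, Spp1, Stc1 and Trf were higher in every parous library, of either side, than in every virgin library, whereas Bst2 and Rps27 followed the side in parous K8imTmG cells.

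Of the hormone-sensing genes tested, 6 of 15 were lower in parous cells. Of 16 listed genes 15 were tested, and 6 fell while none rose, beside 7.78% of all genes called lower, with a median log2 difference of -1.10. Greb1 was above 10 only in virgin libraries, so that the filter selected it for being high there. Among the other 14 genes 5 fell and the median was -1.02. The medians were -2.26 for parity in Clec2d-low K8imTmG cells, where 8 fell, -1.53 for the split in parous K8imTmG cells, -0.51 for the split in parous basal K8iΔRank cells and 0.40 for K8iΔRank parity with the side as a term. The direction of the list therefore depended on whether the side was in the model. Summed over 16 genes the level was 5534, 10471, 9723 and 6142 in parous and 14808, 12685 and 15069 in virgin libraries. The 2 groups did not overlap. In parous K8imTmG cells, from which the side term is estimated, the sums were 3585.5, 1777 and 6046 in Clec2d-low mice 532, 534 and 558. In Clec2d-high mice 494 and 557 they were 12891 and 6269.5. Mouse 558 thus lay close to mouse 557, and mice 532 and 534 were the lowest.

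Among the 6 genes that fell, Greb1, an oestrogen-induced cofactor of the oestrogen receptor, was 2.28, 5.90, 1.11 and 1.99 in parous and 23.97, 28.8 and 35.7 in virgin libraries. It fell by 3.12 on the log2 scale (SE 0.49, limma adjusted p = 0.00392), beside -4.78 in Clec2d-low K8imTmG cells and -1.03 with the side as a term. Areg, amphiregulin, the EGF receptor ligand through which oestrogen drives duct growth, was 639, 818, 505 and 630.2 and 1729, 1290.2 and 1577, a log2 difference of -1.25 (SE 0.21, limma adjusted p = 0.00458). The sides of the split differed by -0.43 for Areg, and its value with the side as a term was -0.82. The oestrogen receptor gene Esr1 was 83.7, 92.4, 131 and 69.5 and 196, 206 and 292. Its log2 difference of -1.30 (SE 0.24, limma adjusted p = 0.00803) was about equal to that between the sides in luminal K8imTmG cells, -1.37, while the sides in basal cells differed by 0.08, and it came to 0.069 with the side as a term.

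Foxa1, the pioneer factor that opens oestrogen receptor sites, was 98.6, 175, 362 and 101 in parous and 975, 481 and 783 in virgin libraries, without overlap. It fell by 2.17 (SE 0.42, limma adjusted p = 0.00881), and fell by 3.65 between the sides in parous K8imTmG cells, which left 1.48 with the side as a term. In those K8imTmG cells it was 68.8, 16.8 and 178 in Clec2d-low mice 532, 534 and 558. Clec2d-high mice 494 and 557 had 1169 and 489. Ly6a, the surface marker Sca-1 of hormone-sensing cells, fell by 1.34 (limma adjusted p = 0.0217) and Wnt4, a target of progesterone, by 0.78 (limma adjusted p = 0.0414). With the side as a term both were above 0, at 1.70 and 0.40.

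The 4 parous mice were not alike for the receptor genes that did not pass. Pgr, the progesterone receptor, was 90.6, 575, 342 and 107 in mice 787, 794, 798 and 830 and 323, 250.0 and 812 in the virgin mice. Prlr, the prolactin receptor, was 1678, 4761, 4144 and 2093 and 3377, 3225 and 6308, and Stc2 was 77.6, 369, 285 and 77.5 and 315, 248 and 509. In all 3 genes mice 787 and 830 lay below the virgin mice and mice 794 and 798 among them. Mice 787 and 830 were also those with the most Csn1s1, Csn1s2a and Csn2. The log2 differences were -0.94 for Pgr, -0.51 for Prlr (0.38 with quantile normalization) and -1.10 for Stc2, with limma adjusted p of 0.301, 0.381 and 0.17.

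**Figure D3:**
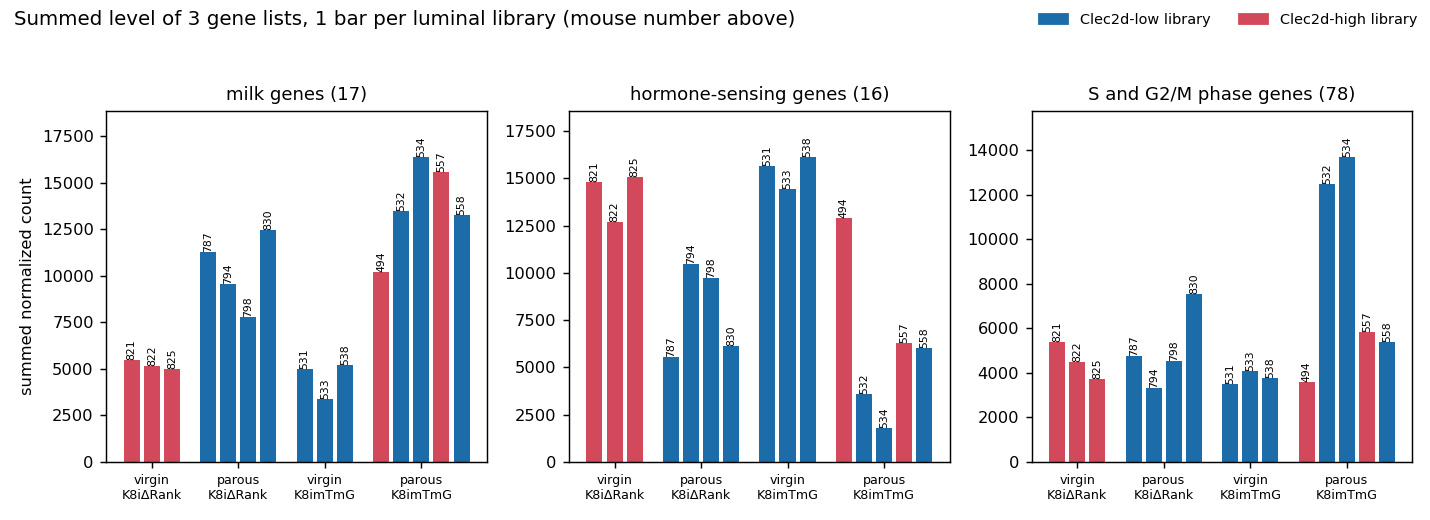
Summed normalized count of the milk genes, hormone-sensing genes and S and G2/M phase genes in each of the 15 luminal libraries, 1 bar per mouse with its number above, coloured by the side of the Clec2d split. In K8iΔRank cells the milk sum was 7784 to 12459 in parous and 4972 to 5478 in virgin libraries, mice 787 and 830 had the lower hormone-sensing sums among the parous mice, and the cell cycle sums of the stages overlapped.

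Of 17 luminal progenitor genes tested 4 rose and none fell, beside 8.25% of all genes called higher. The median was 0.16 in K8iΔRank and 0.90 in Clec2d-low K8imTmG cells. Those that rose were Sox10, a factor of progenitor states, by 1.21 (limma adjusted p = 0.017), the epithelial Ets factor Ehf by 1.22 (0.0216), the retinaldehyde dehydrogenase Aldh1a3 by 0.89 (0.0238) and lipocalin Lcn2 by 0.94 (0.0325). Ehf also rose by 1.30 between the sides of the split and was at -0.084 with the side as a term, while Aldh1a3 was at -0.31 between the sides and at 1.2 with the term. Aldh1a3 was 551, 419, 445 and 714 in parous and 288, 235 and 328 in virgin libraries. Elf5, the Ets factor that specifies alveolar cells downstream of Rank and prolactin, was 199, 119.9, 110.4 and 150.5 in parous and 105, 154 and 135 in virgin cells. It differed by 0.12 (SE 0.24, limma adjusted p = 0.757) in K8iΔRank and by 1.71 (limma adjusted p = 0.0168) in Clec2d-low K8imTmG cells, and the difference between the genotypes was not called (-1.24, limma adjusted p = 0.0718).

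Of 11 prolactin and Stat5 pathway genes 2 fell, beside 7.78% of all genes called lower, and so few say nothing of the pathway as a whole. Stat5a, the transcription factor that prolactin activates, was 41.9, 107, 75.2 and 51.2 in parous and 136, 108 and 299.9 in virgin libraries (log2 difference -1.33, SE 0.38, limma adjusted p = 0.0379). Socs3, a feedback inhibitor of Jak and Stat signalling, was 165, 115, 219.6 and 36.3 and 925, 223 and 403 (log2 difference -1.96, SE 0.58, limma adjusted p = 0.0413). With the side as a term the 2 values were -0.44 and -1.16.

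Of 27 genes of the Rank and NF-κB list 3 rose and none fell, a share near the 8.25% of all genes called higher, and the median was 0.30 beside 0.52 for the split in luminal and 0.30 in basal cells. The 3 genes, whose count is no result about the list, were Rela, the p65 subunit (1.35, limma adjusted p = 0.00644), Nfkb2, the p100 precursor of the non-canonical pathway (1.08, 0.0124), and Nfkbie, an inhibitor of the IκB family (1.30, 0.0226). Between the sides of the split they rose by 1.14, 1.37 and 2.33 on the log2 scale. Transcripts of Rank itself were 27.0 to 41.1 normalized counts in parous and 11.5 to 23.8 in virgin libraries, so the groups did not overlap, but the log2 difference of 0.90 (SE 0.30) missed the threshold (limma adjusted p = 0.0592). In K8imTmG cells Tnfrsf11a differed by 1.92 with parity within the Clec2d-low libraries and by 1.70 between the sides. The ligand Tnfsf11 was 78.8, 0, 2.23 and 37.2 in parous and 148, 55.8 and 10.6 in virgin libraries, and the groups overlapped.

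The largest group of genes that fell together encoded cytosolic ribosomal proteins. Of 82 tested 48 fell and none rose, against 7.78% of all genes called lower, and the median log2 difference was -0.996. Between Clec2d-low and Clec2d-high libraries of parous K8imTmG cells the median was -1.22 and 62 fell. In parous basal K8iΔRank cells the median for the split was -0.85. Between parous and virgin K8imTmG cells within the Clec2d-low libraries the median was -0.08 and none was called in either direction. The summed level of the list was 112200 to 152100 normalized counts in the parous and 205400 to 288900 in the virgin K8iΔRank libraries. Parity within 1 side was compared only in K8imTmG cells, whose Rank gene is intact. In luminal K8iΔRank cells stage and side cannot be told apart, and the cause of the fall was not tested. With the side as a term the median was 0.37.

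Rps27 (chromosome 3, 90119819 to 90120977, minus strand) is shown as an example, at 393, 283, 580.3 and 467 in parous and 4837, 2129 and 2682 in virgin K8iΔRank libraries. It fell by 2.85 on the log2 scale (SE 0.31, limma adjusted p = 0.00118). In parous K8imTmG cells it was 5189.7, 447, 549.8, 5132 and 731 in mice 494, 532, 534, 557 and 558, of which mice 494 and 557 are the Clec2d-high ones. Its values with the side and with parity in K8imTmG cells were -3.19 and 0.51. Rps27a and Rpl35a fell by 1.77 and 1.67 in parous K8iΔRank cells. Reads of ribosomal protein genes and of their processed copies, such as Rps27a-ps1, can be hard to assign, so values of single members are uncertain.

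Subunits of oxidative phosphorylation moved in a similar way. Of 78 tested 29 fell and 3 rose, beside 7.78% and 8.25% of all genes, with a median of -0.53 for K8iΔRank parity, -0.74 for the split in both cell types and -0.17 for parity in Clec2d-low K8imTmG cells. Ndufb3, a subunit of complex I, was 155, 104, 179 and 103 in parous and 544, 483 and 594 in virgin libraries, a log2 difference of -2.02 (SE 0.23, limma adjusted p = 0.00158). Atp5g3 of the ATP synthase, Uqcrb of complex III and Cox7b of complex IV fell by 1.77, 1.65 and 1.60, and by 1.55, 1.68 and 1.45 between the sides of the split. Translation factors were mixed, with 7 of 53 higher and 9 lower. Among the lower ones were the elongation factor Eef1a1 (log2 difference -1.72) and Tpt1 (-1.53), both encoded by transcripts of the same class as those of ribosomal proteins. Of 75 mitochondrial ribosomal protein genes 3 rose and 10 fell (median -0.08), and of 37 proteasome genes 5 rose and 5 fell (median -0.11).

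**Figure D4:**
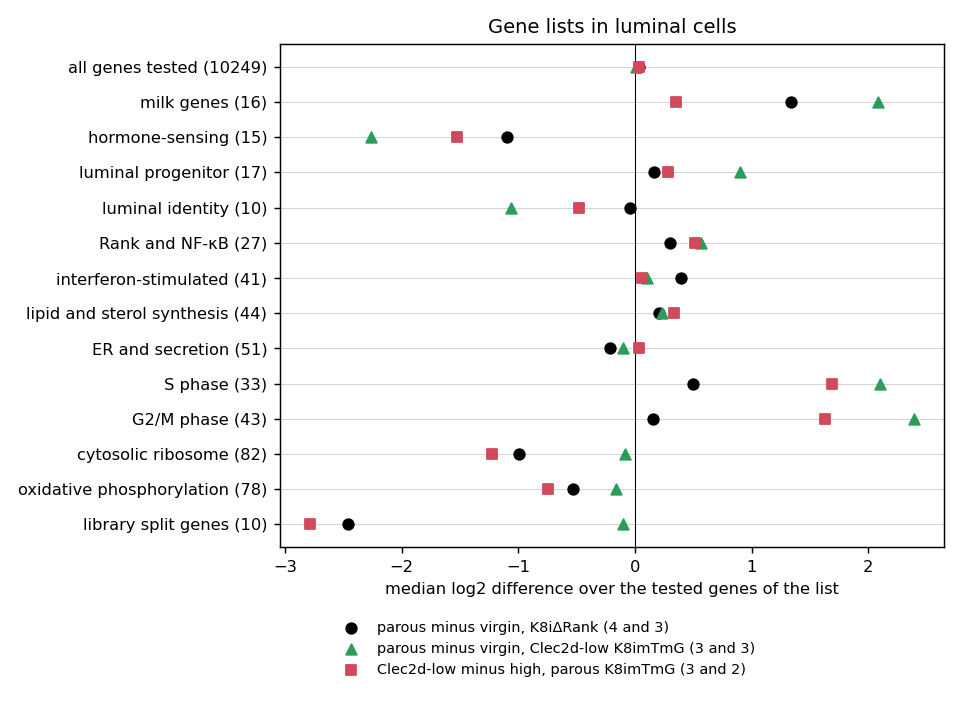
Median log2 difference of 13 gene lists and of all genes tested, with the number of genes tested in parentheses, for parity in K8iΔRank cells (circles), parity in Clec2d-low K8imTmG cells (triangles) and the split in parous K8imTmG cells (squares). For cytosolic ribosome and oxidative phosphorylation the circle lies by the square, at -0.996 and -1.22 and at -0.53 and -0.74. For milk genes the circle, at 1.34, lies nearer the triangle, at 2.09, than the square, at 0.35. The split in parous basal K8iΔRank cells, which is not drawn, had a milk gene median of 0.75.

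Genes that fell were short. The canonical transcript (GENCODE vM39, GRCm39) was known for 97.9% of the genes tested, and its median length was 3491 bases over all of them, 3916 for genes that rose and 2258 for genes that fell. Under 1000 bases long were 5.74% of the genes tested and 19.9% of those that fell. In the shortest of 10 equal bins, 66 to 1325 bases, 218 genes fell and 31 rose. In the longest, 7312 to 40378 bases, 29 fell and 105 rose. The median log2 difference went from -0.40 to 0.15 over these bins. The same relation was present in the split of parous K8imTmG cells, where genes that fell had a median length of 2093, and in that of basal K8iΔRank cells (1990). It was not seen in parity within Clec2d-low K8imTmG cells, where genes that fell had a median of 3654 bases. Pseudogenes were 1.22% of the genes tested and 3.64% of those that fell.

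**Figure D5:**
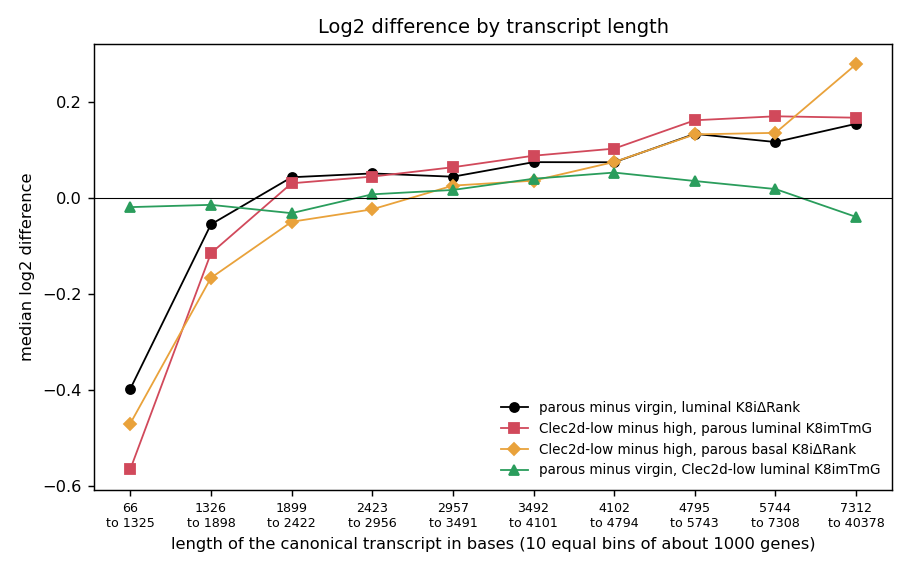
Median log2 difference in 10 equal bins of canonical transcript length, for parity in luminal K8iΔRank cells, the split in parous luminal K8imTmG and in parous basal K8iΔRank cells, and parity in Clec2d-low luminal K8imTmG cells. The first 3 lines go from -0.40, -0.57 and -0.47 in the shortest bin to 0.15, 0.17 and 0.28 in the longest, and the fourth stays between -0.04 and 0.05.

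The genes with the lowest adjusted p among those that fell were led by genes of the split. The 10 genes by which the split was described over all libraries had been picked on libraries that include these, so their fall is a description, and all 10 were lower. Bst2, tetherin, an antiviral membrane protein outside that list, was 38.8, 45.7, 37.9 and 32.3 in parous and 247, 348 and 275 in virgin libraries, a log2 difference of -2.87 (SE 0.21, limma adjusted p = 0.000134). It differed by -2.97 between the sides in parous K8imTmG cells and by -0.77 (limma adjusted p = 0.107) with parity in Clec2d-low ones. Lamtor2, a subunit of the lysosomal Ragulator complex, Bax, an effector of apoptosis, Tnfrsf12a, the Tweak receptor, and Sumo2, a protein modifier, were of the split list and had log2 differences of -2.94, -3.23, -2.37 and -2.11. With the side as a term they came to 0.14, -0.0095, 0.48 and 0.45. Polr2k, a subunit shared by RNA polymerases, the snoRNA host Snhg3, the pseudogene Kat6b-ps2 of the split list and the pseudogene Rps27a-ps1 completed the set with -1.79, -1.94, -3.25 and -2.43.

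The corresponding genes that rose included Csn1s1, Spp1, Muc1 and Stc1. C4b, complement component C4, was 110.0, 127, 132 and 118 in parous and 39.1, 32.7 and 42.3 in virgin libraries (log2 difference 1.66). Cbr2, a carbonyl reductase, rose by 2.76, and Celf2, an RNA-binding protein, by 1.44. In Clec2d-low K8imTmG cells these 3 genes rose with parity by 1.48, 2.65 and 1.09 (limma adjusted p = 0.0323, 0.0147 and 0.0182). Between the sides of the split in luminal cells they rose as well, by 1.21, 1.80 and 1.19. Usp2, a deubiquitinase, rose by 1.74 in K8iΔRank cells and by 1.43 between the sides, but was at -0.50 for parity in Clec2d-low K8imTmG cells.

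Stc1, stanniocalcin-1, a secreted glycoprotein (ENSMUSG00000014813.11, chromosome 14, 69266575 to 69279253, plus strand), differed with parity in both genotypes and little between the sides. It was 103, 127, 183 and 156 in the parous and 31.5, 15.4 and 36.99 in the virgin K8iΔRank libraries, with means of 142 ± 34.9 (SD, n = 4) and 27.97 ± 11.2 (SD, n = 3). In K8imTmG cells it was 215, 169, 193, 147 and 141 in the 5 parous and 53.8, 42.99 and 17.7 in the 3 virgin libraries. All 9 parous luminal libraries were above all 6 virgin ones, whichever side they were on. The log2 difference was 2.36 (SE 0.31, limma adjusted p = 0.00223) in K8iΔRank and 2.23 (limma adjusted p = 0.0164) in Clec2d-low K8imTmG cells, and -0.097 between the sides. With the side as a term it was 2.46 (unadjusted p = 0.000439, limma adjusted p = 0.346).

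The parity comparisons of both genotypes called 215 genes in common, of which 185 had the same sign (122 higher and 63 lower) and 30 the opposite sign. The 215 genes are 13.6% of the genes called in K8iΔRank cells, beside 12.8% of all genes called in Clec2d-low K8imTmG cells. Of those called in Clec2d-low K8imTmG cells they are 17.2%, beside 16.0% of all genes called in K8iΔRank cells. Both shares are near those of all genes, so the size of the overlap is no result about parity. Of the 185 genes 12 differed by less than 0.5 between the sides of the split in both parous luminal K8imTmG and parous basal K8iΔRank cells. These were chosen after their values had been seen. Beside Stc1 and Trf, those that rose were Rftn1, Pgap4, Tyro3, Vdr, C130074G19Rik, Fads3, Rassf4 and Bcl2, with log2 differences between 0.80 (Vdr) and 1.10 (C130074G19Rik) in K8iΔRank cells. Vdr, the vitamin D receptor, was 109, 92.4, 103 and 96.8 in parous and 63.1, 49.99 and 59.4 in virgin libraries. Tyro3, a receptor kinase that binds ligands on dying cells, was 97.8, 90.9, 103 and 104 and 50.5, 57.7 and 60.8. Bcl2, the inhibitor of apoptosis, was 178, 112, 145 and 191 and 75.7, 63.5 and 103, a log2 difference of 0.95 (SE 0.24, limma adjusted p = 0.026) beside 0.97 in K8imTmG cells. Fam210b and Dock5 fell, by 0.83 and 0.89.

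Lists of alveolar cells rose in part. Of 195 tested genes of the published luminal alveolar signature C4, 44 rose and 11 fell, which is above the 8.25% of all genes called higher. The median was 0.40, beside 0.73 for parity in Clec2d-low K8imTmG cells and 0.14 for the split. The filter selected 4 of the C4 genes for being above 10 only in parous libraries. Among the other 191 genes 42 rose and 11 fell, with a median of 0.38. Of 44 tested genes of the alveolar progenitor signature of mid-pregnancy 6 rose and 5 fell with a median of 0.14. Here 3 genes were above 10 only in parous libraries. Among the other 41 genes 5 rose and 5 fell, and the median was 0.02. In Clec2d-low K8imTmG cells 23 of these 44 rose and none fell, with a median of 1.29. Irx1, a homeobox gene of the C4 signature, was 222, 224, 206 and 200.1 in parous and 430.3, 552 and 353 in virgin K8iΔRank libraries (log2 difference -1.04, limma adjusted p = 0.00765). It was 0.93 for parity in Clec2d-low K8imTmG cells and -1.15 for the split.

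The counts of the next 4 lists stand beside 8.25% of all genes called higher and 7.78% called lower. Of 44 lipid and sterol synthesis genes 4 rose and 1 fell, with a median of 0.21, so the share that rose is near that of all genes. Acaca, acetyl-CoA carboxylase, was 57.1, 49.6, 40.7 and 68.04 in parous and 7.57, 17.3 and 10.6 in virgin libraries, a log2 difference of 2.14 (SE 0.31, limma adjusted p = 0.00311) beside 2.05 for the split. Fads1, a fatty acid desaturase, rose by 1.33, Mvd of the mevalonate pathway by 1.33 and Fasn, fatty acid synthase, by 1.11. Of 51 endoplasmic reticulum and secretory pathway genes 5 rose and 8 fell (median -0.22), among the latter Srp14 of the signal recognition particle (-1.30) and the chaperone Hyou1 (-1.36). Of 20 involution genes 3 rose and 3 fell. Clu, clusterin, a chaperone raised during involution, was among those that rose (1.10), and Bax, Tnfrsf12a and Socs3 were those that fell. Of 20 tight junction and adhesion genes 1 rose and 3 fell, the latter being Ctnnd1 (-2.41), Cldn7 and Jup (-0.77).

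Of 41 interferon-stimulated genes 7 rose and 4 fell, with a median of 0.39, beside 8.25% and 7.78% of all genes, so the share that fell is near that of all genes. Rsad2, viperin, rose by 1.77 and the GTPase Igtp by 1.28, whereas Eif2ak2, the RNA-activated kinase PKR, fell by 1.39 along with Bst2. Of 18 genes of MHC class I and its peptide loading 1 rose, the proteasome activator Psme1 (0.89), and 3 fell. These were H2-Q4 (-2.01), which is of the split list and has close paralogs, B2m, the shared light chain (-1.01), and Pdia3 (-0.71). Of 26 immediate early genes, which respond to tissue handling, 2 rose and 4 fell, among them Junb (-1.41) and Btg2 (-1.24). Of 18 heat shock genes Hspa1b (-1.64), its near-identical neighbour Hspa1a (-0.79) and Hspe1 (-1.48) fell.

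Proliferation genes did not separate the stages in K8iΔRank cells. Of 33 S phase genes 2 rose (Nasp, 0.94, and Casp8ap2, 0.82) and 1 fell (Ubr7, -0.82), beside 8.25% and 7.78% of all genes called higher and lower. Of 43 G2/M genes 2 rose (Rangap1, 1.08, and Lbr, 0.95) and none fell, and such counts are no result about either list. The medians were 0.50 and 0.16, beside 2.10 and 2.39 for parity in Clec2d-low K8imTmG cells and 1.69 and 1.63 for the split in parous K8imTmG cells. In parous basal K8iΔRank cells the medians for the split had the opposite sign, -0.44 and -0.42. Summed over 78 genes of both phases, the level was 4771, 3325, 4503 and 7525 in parous and 5392, 4459 and 3735 in virgin K8iΔRank libraries. In parous K8imTmG cells it was 12474, 13705 and 5360 in Clec2d-low mice 532, 534 and 558. Clec2d-high mice 494 and 557 had 3597 and 5828.5, and virgin K8imTmG libraries 3476 to 4061. The high sums in K8imTmG cells were thus those of mice 532 and 534. Mki67, the antigen Ki67, was 50.99, 4.42, 45.1 and 264 in mice 787, 794, 798 and 830 and 32.8, 48.1 and 3.96 in the virgin mice. Both stages held libraries with few and with many reads of it, and the log2 difference of 1.09 (SE 1.10) was far from the threshold (limma adjusted p = 0.518).

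The difference of the parity effect between genotypes was tested over the 15 luminal libraries. Without regard to the split 12.9% of 10262 genes were called. The sides are not balanced between the genotypes in this test, and genes that differed with the side were among those called, such as Rps27 (-4.64, limma adjusted p = 0.0224) and Bst2 (-3.29, 0.0326). The genes with the lowest adjusted p were Lpcat3, Aldoa, Rcan1, Atp6v0d1 and Ptpn1, more positive in K8iΔRank, and Lysmd2, Srsf7, Hspa14, Hspe1 and Csn3, more negative. Aldoa, the glycolytic enzyme aldolase A, was 304, 529.6, 327 and 361 in parous and 132, 133 and 156 in virgin K8iΔRank cells. In K8imTmG cells it was 169.7, 174, 166, 166 and 257 in parous and 519.7, 366 and 903 in virgin libraries, so the order of the stages was opposite and the difference was 2.99 (limma adjusted p = 0.00388). Rcan1, an inhibitor of calcineurin, was 49.8, 78.6, 75.2 and 73.01 in parous and 40.4, 17.3 and 38.3 in virgin K8iΔRank cells, with 15.98 to 41.97 in parous and 115 to 261 in virgin K8imTmG cells (difference 3.61). Between the sides of the split in parous luminal K8imTmG cells Aldoa differed by 0.22 and Rcan1 by 0.75 (limma adjusted p = 0.524 and 0.126). In parous basal K8iΔRank cells Aldoa differed by 1.38 between the sides (limma adjusted p = 0.014), about as much as with parity in luminal K8iΔRank cells (1.40), and Rcan1 by 0.95 (limma adjusted p = 0.116).

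With the side of the split as a term 0.0487% of the genes, that is 5 of 10262, were called for a difference between the genotypes, all higher in K8iΔRank. They were Aqp1, Rundc3a, Tesc, Snorc and Dst, named after their values had been seen. DESeq2 called 461 genes in this model and edgeR 2. Aqp1, the water channel aquaporin-1, had the widest difference. It was 134, 186, 212 and 164 in parous and 45.4, 61.5 and 112 in virgin K8iΔRank libraries. In K8imTmG cells it was 67.2, 4.80, 3.09, 38.3 and 16.4 in the 5 parous and 25.6, 26.2 and 76.5 in the 3 virgin libraries. Parity thus went with a log2 difference of 1.32 (SE 0.29, limma adjusted p = 0.015) in K8iΔRank and -2.36 (limma adjusted p = 0.0439) in Clec2d-low K8imTmG cells, and the difference with the side as a term was 6.48 (SE 1.03, limma adjusted p = 0.0321). The last value is not the difference of the 2 parity values alone. It also subtracts the difference between the sides in parous K8imTmG cells, where Aqp1 was 4.80, 3.09 and 16.4 in Clec2d-low and 67.2 and 38.3 in Clec2d-high libraries. That part rests on 3 against 2 libraries. For Snorc, a proteoglycan, the parous K8iΔRank values of 183, 229.9, 193 and 329.8 overlapped the virgin values of 199, 237 and 109.6, whereas K8imTmG cells went from 120.1 to 186 in virgin to 15.9 to 60.5 in parous libraries. The differences with the term were 6.09 for Rundc3a, 4.43 for Tesc, 4.42 for Snorc and 2.64 for Dst, and they hold the same subtraction.

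Markers of other cell types were summed in each library. Of 13 T and B cell markers 1 was in the table and none was tested. The 9 macrophage markers in the table summed to 59.1 to 85.2 normalized counts in parous and 44.9 to 117 in virgin libraries, and the 7 endothelial markers to 41.1 to 108 and 77.9 to 110. Fibroblast markers were higher in the virgin libraries, at 304 to 656 in parous and 925 to 1407 in virgin libraries over 10 genes. Dcn, decorin, was 139, 189.6, 325 and 121 in parous and 652, 571 and 802 in virgin libraries, a log2 difference of -1.89 (SE 0.30, limma adjusted p = 0.00409), and was the only fibroblast marker called of 8 tested. No macrophage (4 tested), endothelial (3), adipocyte (1) or red cell (2) marker was called by limma. Beside 8.25% of all genes called higher and 7.78% called lower, counts from so few markers are no result about these cell types. The part of these transcripts in the results above was not tested.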

How the data were processed

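The deposited table holds normalized signal values for 11137 genes in 30 libraries. According to the methods, the authors trimmed QuantSeq 3′ reads with BBDuk, aligned them to GRCm39 with Bowtie2, collapsed duplicates by molecular identifier with UMI-tools, counted on the Gencode vM26 annotation, divided by DESeq2 size factors and kept genes with enough signal. In units of the lowest step found in a library, the values came out as whole reads for 100% of the values (tolerance 0.02 reads), and 3 reads were taken as the floor, which covers counting error only.

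Groups were compared with limma 3.58.1 (R 4.3.3) on log2(value + 1) with a mean-variance trend, among genes above 10 in at least 25% of the libraries compared, so log2 differences of low genes are understated. Benjamini-Hochberg adjustment ran over all genes tested, at 0.05. A single value of 4 against 3 mice could reach an exact two-sided permutation p of 0.0571 at best (35 groupings). Libraries of a group differed beyond sampling noise (chi-square per degree of freedom of at least 7.26). Alternatives were pseudocounts of 0.5 and 4, other filters, quantile normalization, array weights, joint fits with and without the side, each mouse left out, and DESeq2 1.42.0 and edgeR 4.0.16 on recovered reads. The comparison within parous basal K8iΔRank cells and the counting tools with the side as a term were added after seeing the data. The tests were tried on simulated data. Gene lists were written by hand, taken from the study's supplements (the alveolar signatures) or matched by symbol (oxidative phosphorylation, mitochondrial ribosome and proteasome). The members and lists were chosen with earlier results of these data known. Lists were described by counts and medians, with no test. Each library is 1 mouse, so p-values measure the spread between mice.

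Genes were named by rule: up to 10 per direction with the lowest adjusted p whose groups do not overlap and whose higher mean is at least 20, up to 4 per list by lowest p, genes of the study's text, and up to 5 per direction for the difference between genotypes. A further part, genes also called with the side as a term, selected 0. A few genes that meet the rule are not reported here. Csn1s2a, Mfge8, Cel, Ly6a, Wnt4, Prlr, Stc2, Krt8, Krt18, Rpl35a, Tpt1, Atp5g3, the 12 genes near 0 for the split (Stc1 and Trf also meet the rule) and the 5 genes called with the side as a term were named after their values were seen. Coordinates are those of GENCODE vM39, in which 10898 of 11137 symbols were found. Python 3.11.15, numpy 2.4.6, pandas 2.3.3 and matplotlib 3.10.9 were used.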

Additional observations from a re-analysis of the deposited data

Results flagged for a closer look

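Among groups of 4 parous libraries, 3 of the 120 tested held a value far from the others, where chance alone marks about 1 in 20 groups. Mouse 787 had 789 normalized counts of Csn1s2a and 694 of Csn2, each far above the other 3 parous mice. Mouse 798 had 199 normalized counts of Srp14, far above the other 3.

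The parity effect differed between the genotypes, by limma over the 15 luminal libraries without the side as a term, in 47 of the 115 genes named, 13 in the positive and 34 in the negative direction. Over all 10262 genes tested 12.9% were called, 736 positive and 590 negative. The named genes include those picked for this difference and those of the split list, so their count and its lean to the negative side follow in part from the choice. Of the 47 genes, Snorc and Tesc were also called with the side as a term, and the others were not. All values are log2 differences of the K8iΔRank minus the K8imTmG parity effect. For milk and luminal genes they were -5.31 for Csn1s2a, -2.70 for Csn3, -2.42 for Irx1, 1.33 for Krt18, -2.33 for Cldn7, -3.97 for Ctnnd1 and -2.15 for Acta2. For ribosomal and translation genes they were -4.64 for Rps27, -2.93 for Rps27a, -4.52 for Rps27a-ps1, -2.40 for Rpl35a, -2.79 for Eef1a1 and -2.41 for Tpt1. Respiratory chain genes had -3.48 for Ndufb3, -1.98 for Cox7b, -2.14 for Uqcrb and -2.97 for Atp5g3.

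Clec2d defines the split, and Lamtor2, Sumo2, Bax, Kat6b-ps2 and H2-Q4 are of the split list that was picked on these libraries, so their values are a description in a test whose sides are unbalanced between the genotypes. The genes that led the fall in K8iΔRank cells differed by -7.65 for Clec2d, -3.29 for Bst2, -3.60 for Lamtor2, -3.37 for Sumo2, -4.21 for Bax, -2.60 for Polr2k, -4.52 for Kat6b-ps2 and -2.65 for Snhg3. Immune and stress genes differed by 3.38 for Rsad2, 1.62 for Igtp, -2.08 for Eif2ak2, -3.02 for H2-Q4, 1.82 for Psme1, -0.89 for Pdia3, -2.23 for Hyou1, -2.30 for Junb, -2.57 for Hspe1 and -2.10 for Hspa14. The remaining values were 1.59 for Rela, 2.81 for Usp2, -1.62 for Ubr7, 2.03 for Lpcat3, 2.99 for Aldoa, 3.61 for Rcan1, 2.12 for Atp6v0d1, 2.02 for Ptpn1, -1.97 for Lysmd2, -1.75 for Srsf7, 2.67 for Snorc and 2.40 for Tesc.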

How the results depend on the processing

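The 1643 genes called for parity in K8iΔRank cells came to 222 with all 15 luminal libraries in 1 fit (66.2% higher, against 51.5%) and to 0 with the side as a term, and were 729 (without mouse 830) to 1570 when 1 mouse was left out, with 793, 898 and 994 without mice 821, 794 and 787. The other alternatives gave 1261 to 1857. Milk genes called higher were 0 with the side as a term and 5 (without mouse 821) to 11 with 1 mouse left out. Hormone-sensing genes called lower were 1 in the joint fit, 0 with the side as a term and 4 to 6 with 1 mouse left out. Ribosomal protein genes called lower were 24 with quantile normalization, 1 in the joint fit, 0 with the side as a term and 37 to 52 with 1 mouse left out, and oxidative phosphorylation genes were 7, 0 and 25 to 35 in the last 3 of these. The 1326 genes called for a difference between genotypes came to 5 with the side as a term, 2671 with array weights, 1990 with DESeq2 and 336 (without mouse 538) to 1533 with 1 mouse left out. For parity in Clec2d-low K8imTmG cells, 1285 became 6534 with array weights, whose estimation stopped before convergence in some fits, 226 with all 8 libraries and 13 (without mouse 532) to 1378 with 1 mouse left out. For the split in parous K8imTmG cells, 1750 became 242 (without mouse 532) to 1984, and without mouse 534 it was 437. Where 1 library was left on a side, it was assumed to vary like the others.

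Of 115 genes named, 44 changed sign with the side as a term, 61 kept their direction without passing the threshold and 10 kept both direction and side of the threshold. Those that changed were Csn3 0.13, Lalba -1.80, Esr1 0.069, Foxa1 1.48, Ly6a 1.70, Wnt4 0.40, Pgr 0.89, Prlr 1.18, Stc2 1.52, Ehf -0.084, Elf5 -0.75, Tnfrsf11a -0.80, Nfkb2 -0.29, Nfkbie -1.03, Krt8 0.12, Cldn7 0.15, Epcam 0.035, Rps27 0.34, Rps27a 0.65, Rpl35a 0.58, Eef1a1 0.49, Tpt1 0.50, Ndufb3 0.13, Uqcrb 0.029, Bst2 0.10, Lamtor2 0.14, Sumo2 0.45, Tnfrsf12a 0.48, Polr2k 0.027, Snhg3 0.12, Fasn -0.88, H2-Q4 0.38, Hspa1b 0.23, Hspa1a 0.69, Mki67 -3.22, Nasp -0.66, Irx1 0.11, Dst 0.95, Rangap1 -0.55, Lbr -0.48, Casp8ap2 -0.052, Srp14 0.40, Hyou1 0.0025 and Mvd -1.31, as log2 differences. With quantile normalization Csn3 was 0.15, Prlr 0.38, Krt8 0.41 and Epcam 0.041, and with 1 mouse left out Elf5 ranged from -0.041 (without 787) to 0.25, Tesc from -0.045 (without 825) to 0.43, and Elf5 was also below 0 without 821. The other alternatives changed no sign, and the cause of these changes was not tested. No paired analysis was possible because the 7 K8iΔRank libraries come from 7 mice with different numbers. The lower depth of the virgin libraries limits the low values most, where a single read is worth up to 1.92.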
